A study of Mus musculus with 12 samples.

Results

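The genes described here flank Gpnmb on mouse chromosome 6. They were chosen as the protein-coding genes lying fully between positions 39036546 and 59070929 of GRCm38, which is 10 Mb on each side of Gpnmb, selected on a mean of at least 1 CPM (counts scaled to the size of the library) over the 12 libraries. Gpnmb itself and Atp6v0e2 were left out. Apart from leaving out Atp6v0e2, no fold change was used to choose members, although earlier results of these data were known when the window was set. Of 227 protein-coding genes in this window, 82 had no count in any library, 48 had counts but stayed under the minimum and 97 reached it, which gave 95 members of the 54532 genes in the table. All 95 also passed the filter on low counts, and 45 lay on the low-coordinate side of Gpnmb and 50 on the high-coordinate side.

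RNA sequencing was done on bone marrow-derived macrophages (BMDMs), macrophages grown in culture from mouse marrow, in 4 groups of 3 libraries. They were R150X cells given oxidised low-density lipoprotein (OxLDL), WT cells given OxLDL, untreated R150X cells and untreated WT cells. R150X cells came from GpnmbR150X mice and WT cells from control mice, and all groups carried the same strain label, a cross of DBA/2 and C57BL/6 backcrossed to C57BL/6. The study's subject was GPNMB, a membrane glycoprotein abundant in macrophages loaded with lipid, and its part in foam cell formation. The labels gave no age, no OxLDL dose or time, and not whether libraries of a group came from separate mice or cultures, so p-values measure only the spread between these libraries, which may be technical.

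R150X is a premature stop codon of Gpnmb known from the DBA/2J strain. When an allele is moved from one mouse strain into another by backcrossing, the chromosome around it is inherited with it, and the length of that stretch shrinks with each generation as crossovers occur. Genes near a selected allele can therefore carry the donor strain's sequence in mutant animals but not in controls. The deposited table holds counts without base calls, so which strain's sequence these mice carry around Gpnmb was not tested.

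The promoters below belong to the members on which the results turn. Tmem176b and Tmem176a are shown because they lie head to head and moved together, Npy and Aqp1 because their levels differed between the genotypes in both conditions, and Herc6 and Parp12 because they had the deepest falls with OxLDL among the innate immune members. Each is the strand of the gene, from 250 bases before to 50 bases after the start, from RefSeq on GRCm38.p6, which held 87 of the 95 members and whose starts can differ from those of the gene coordinates given further on. In the Tmem176 pair the capitals mark the 155 bases, chr6:48841233-48841387, that both windows contain on opposite strands. In Npy the capitals mark a CCAAT box on the reverse strand and a GC box, and in Aqp1 a GC box.
Tmem176b, chr6:48841088-48841387, minus strand: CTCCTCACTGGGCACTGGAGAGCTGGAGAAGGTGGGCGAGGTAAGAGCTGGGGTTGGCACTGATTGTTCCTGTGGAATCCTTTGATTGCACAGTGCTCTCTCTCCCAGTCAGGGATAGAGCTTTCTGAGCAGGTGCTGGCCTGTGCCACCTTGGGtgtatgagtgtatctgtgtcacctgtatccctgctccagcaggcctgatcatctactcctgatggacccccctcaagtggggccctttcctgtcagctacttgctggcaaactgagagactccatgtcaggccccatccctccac
Tmem176a, chr6:48841233-48841532, plus strand: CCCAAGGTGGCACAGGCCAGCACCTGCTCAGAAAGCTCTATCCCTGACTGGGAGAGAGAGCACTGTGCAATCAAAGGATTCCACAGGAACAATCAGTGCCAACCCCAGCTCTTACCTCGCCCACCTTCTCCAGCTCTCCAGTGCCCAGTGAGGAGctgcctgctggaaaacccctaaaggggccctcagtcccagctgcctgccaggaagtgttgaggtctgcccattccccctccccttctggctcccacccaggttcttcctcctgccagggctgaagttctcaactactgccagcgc
Npy, chr6:49822460-49822759, plus strand: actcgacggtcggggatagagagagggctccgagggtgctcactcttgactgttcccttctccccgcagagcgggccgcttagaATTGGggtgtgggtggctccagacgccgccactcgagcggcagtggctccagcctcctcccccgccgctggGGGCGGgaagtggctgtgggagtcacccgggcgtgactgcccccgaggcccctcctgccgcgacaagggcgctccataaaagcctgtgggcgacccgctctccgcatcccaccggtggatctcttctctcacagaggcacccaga
Aqp1, chr6:55336049-55336348, plus strand: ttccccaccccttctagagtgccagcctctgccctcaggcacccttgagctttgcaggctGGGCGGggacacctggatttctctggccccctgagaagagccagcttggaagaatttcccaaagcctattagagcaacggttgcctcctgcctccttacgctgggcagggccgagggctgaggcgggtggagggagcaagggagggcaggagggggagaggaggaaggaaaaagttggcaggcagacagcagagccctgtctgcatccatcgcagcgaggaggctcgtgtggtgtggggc
Herc6, chr6:57580742-57581041, plus strand: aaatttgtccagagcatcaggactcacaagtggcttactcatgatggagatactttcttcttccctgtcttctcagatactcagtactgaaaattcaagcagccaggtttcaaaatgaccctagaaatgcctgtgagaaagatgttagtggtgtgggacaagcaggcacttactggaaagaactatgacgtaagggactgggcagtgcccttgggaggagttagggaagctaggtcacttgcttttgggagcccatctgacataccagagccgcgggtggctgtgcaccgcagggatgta
Parp12, chr6:39118300-39118599, minus strand: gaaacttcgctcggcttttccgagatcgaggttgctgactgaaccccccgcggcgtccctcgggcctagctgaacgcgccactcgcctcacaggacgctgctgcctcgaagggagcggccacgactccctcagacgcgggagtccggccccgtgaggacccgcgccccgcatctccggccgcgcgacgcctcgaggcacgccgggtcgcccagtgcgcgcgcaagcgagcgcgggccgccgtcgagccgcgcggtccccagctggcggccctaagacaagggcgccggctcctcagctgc
Both strands of every window were searched for the TATA box TATAAA, the CCAAT box CCAAT, the core of the interferon-stimulated response element (GAAA, 2 bases of any kind, GAAA) and the GC box GGGCGG, and no matches overlapped in the printed windows. GGGCGG was found in 57 of the 87 member promoters, or 65.5%, against 35.9% of 27025 mouse promoters. CCAAT was in 35.6% of member promoters and 37.9% of all, TATAAA in 6.9% and 14.2%, and the interferon element in 3.45% and 3.49%. The members were selected on expression in these cells and the 27025 promoters were not. The part of that selection in the differences was not tested. Herc6, Parp12 and the Tmem176 pair held none of the 4 motifs in these windows.

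Total counts per library ran from 14838969 to 18222868, so that 3 counts, the floor used here, corresponded to 0.165 to 0.202 CPM, and no member was under it in any library. Gpnmb averaged 706 ± 16.3 CPM in R150X cells with OxLDL and 12508 ± 136 CPM in WT cells with OxLDL. Untreated R150X cells held 385 ± 23.9 CPM of it and untreated WT cells 5330 ± 37.8 CPM (SD, n = 3 each). Replicate 1 of untreated R150X stood apart, with a chi-square over its degrees of freedom of 9.23 and 10.1 against its replicates, where all other pairs within a group gave 2.31 to 4.76. Xist, the transcript of the inactive X, was at 228 to 349 CPM in R150X libraries and 0 to 2.75 CPM in WT libraries, while Ddx3y, a Y-linked gene, was at 51.3 to 60.1 CPM in R150X and 83.6 to 100 CPM in WT. The sex makeup of the libraries thus moved with genotype, and the 2 cannot be told apart in any R150X against WT value. Of 6 macrophage markers, summed levels were 5498 to 5804 CPM in untreated R150X and 5238 to 5349 CPM in untreated WT, so macrophage markers were abundant. With OxLDL they were 3529 to 3583 CPM in R150X and 3867 to 3933 CPM in WT, where 0 of the 6 rose and 4 fell in R150X. Of 8 T and NK cell markers, Cd3e, Cd3d and Cd3g stayed at or under 0.183 CPM and all but Il7r at or under 1.34 CPM. Il7r averaged 388 CPM in R150X and 359 CPM in WT with OxLDL, and 246 CPM in untreated R150X and 166 CPM in untreated WT.

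Atp6v0e2, a subunit of the proton pump that acidifies lysosomes, lies 0.495 Mb from Gpnmb and was left out because of its known difference. It averaged 23.4 ± 0.993 CPM in R150X and 0.243 ± 0.152 CPM in WT with OxLDL, and 20.9 ± 1.86 CPM in untreated R150X and 0.745 ± 0.394 CPM in untreated WT. Just inside the CPM minimum lay Pde1c at 1.00 and Gimap5 at 1.06 mean CPM, and just outside it Gimap3 at 0.80, Hoxa13 at 0.79 and Fam221a at 0.79. The outermost members were Parp12 and Fam13a, and beyond them Tbxas1 crossed the low edge and Tigd2 lay past the high edge.

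Levels of the members spanned a wide range. Per kilobase of exon, the highest mean levels over all libraries were those of Hnrnpa2b1, a splicing factor, at 68.8 CPM per kb, Tmem176b at 59.5, Pdia4 at 54.9, Zyx, a focal adhesion protein, at 41.5 and Fkbp9 at 40.4. The lowest was that of Pde1c, a cyclic nucleotide phosphodiesterase, at 0.0499 CPM per kb. In CPM without length, Hnrnpa2b1, Tax1bp1, Zyx, Skap2 and Tmem176b led. Hnrnpa2b1 and Zyx did not pass the test in either genotype comparison, with log2 fold changes of 0.04 and -0.08 in untreated cells and -0.06 in both cases with OxLDL.

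R150X differed from WT in 43 of the 95 flanking genes in untreated cells, 19 higher and 24 lower in R150X, by edgeR's quasi-likelihood test. A member was called where its p, adjusted by Benjamini and Hochberg's method across the 15338 genes that passed the filter, was under 0.05. That is 45.3% of members, where 33.0% of all genes tested passed and 37% of protein-coding genes at the same CPM minimum. The members higher in R150X were 20%, against 18.1% of all genes, and those lower were 25.3%, against 14.8%. With OxLDL, 20 of the 95 differed, 8 higher and 12 lower, which is 21.1% beside 13.0% of all genes and 14.2% of protein-coding genes at that minimum. The higher ones were 8.42%, against 6.10% of all genes, and the lower ones 12.6%, against 6.92%. Leaving out replicate 1 of untreated R150X gave 34 untreated calls, 35.8% beside 26.5% of all genes, and leaving out replicate 1 of WT with OxLDL gave 12 calls with OxLDL, 12.6% beside 9.22%. The median absolute log2 fold change was 0.23 over the members and 0.21 over all genes in untreated cells, and 0.21 and 0.14 with OxLDL. Over protein-coding genes at the same CPM minimum it was 0.18 untreated and 0.11 with OxLDL. In all 43 untreated and all 20 OxLDL calls the R150X libraries did not overlap the WT libraries. The same held for 5 and 16 members not called. Such separation, given below for single genes, therefore adds no support to a call.

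The calls were spread unevenly along the chromosome, more so with OxLDL than in untreated cells. With OxLDL, 14 of the 34 members within 2.5 Mb of Gpnmb (41.2%) differed between the genotypes, against 1 of 14 from 2.5 to 5 Mb, 2 of 20 from 5 to 7.5 Mb and 3 of 27 from 7.5 to 10 Mb. The near members were called on both sides, 9 of 22 on the low side and 5 of 12 on the high side. In untreated cells the same 4 distances held 19 of 34 (55.9%), 6 of 14 (42.9%), 9 of 20 (45%) and 9 of 27 (33.3%) called members. On the high side, 7 of 12 within 2.5 Mb and 6 of 11 from 5 to 7.5 Mb were called untreated (58.3% and 54.5%). On the low side these were 12 of 22 and 3 of 9. Without replicate 3 of untreated R150X the untreated calls were 14 of 34 near Gpnmb (41.2%) and 22 of 61 beyond 2.5 Mb (36.1%). Without replicate 1 of WT with OxLDL the OxLDL calls were 8 of 34 near Gpnmb (23.5%) and 4 of 61 beyond (6.56%). No member lay between 2.5 and 5 Mb on the low side, and no test was made on these shares, since the window was chosen with earlier results known.

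**Figure D1:**
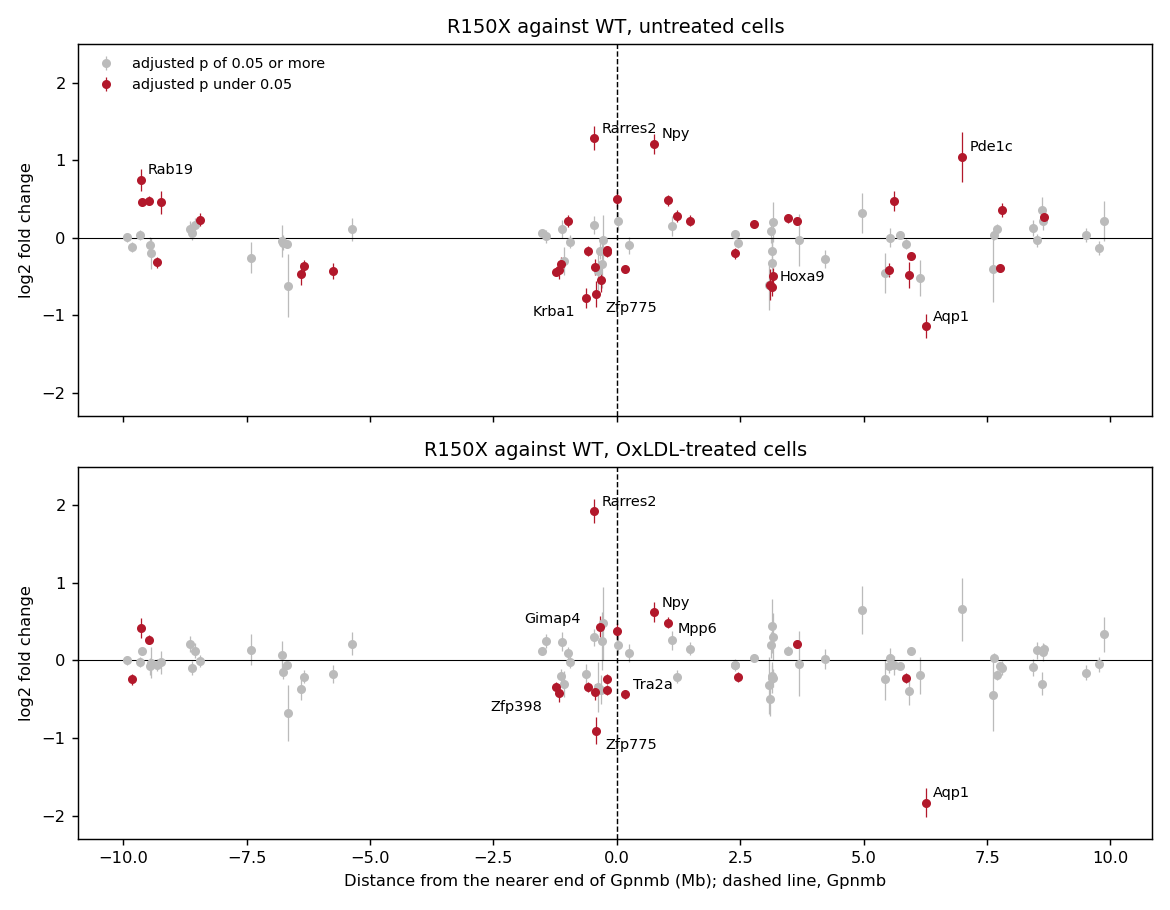
Log2 fold change, R150X against WT, of each of the 95 flanking genes (points, with bars of 1 SE) by distance from Gpnmb in Mb, in untreated cells (top) and OxLDL-treated cells (bottom), with genes at an adjusted p under 0.05 in red. With OxLDL the red points gather within 2.5 Mb of Gpnmb, and Rarres2, Npy and Aqp1 stand far from 0 in both panels.

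**Figure D2:**
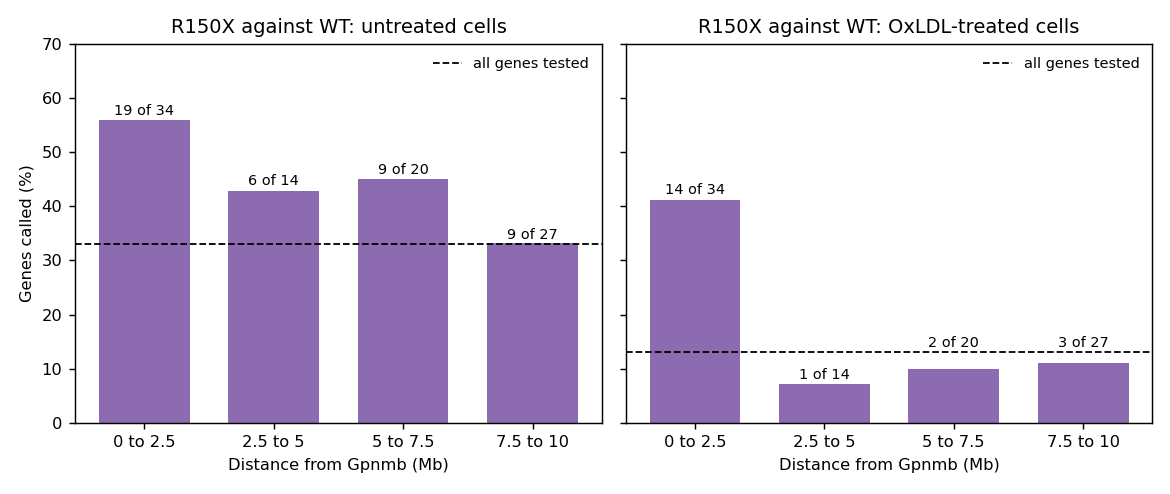
Share of flanking genes called between R150X and WT (bars, percent) in 4 ranges of distance from Gpnmb, in untreated and OxLDL-treated cells, with the number called above each bar and the share over all genes tested as a dashed line. With OxLDL the nearest range stands at 41.2% and the others at 7.14% to 11.1%.

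The 2 genotype comparisons share no library, and 16 members were called in both, each in the same direction, 7 higher and 9 lower in R150X. They are 37.2% of the untreated calls and 80% of the OxLDL calls, beside 26.5% and 67.2% over all genes tested, where 1244 of 1341 shared calls had the same direction. Of the 16, 12 lay within 2.5 Mb of Gpnmb. They were Rarres2, Npy, Malsu1 and Mpp6 among the higher, and Pdia4, Zfp398, Zfp467, Repin1, Zfp775, Tmem176b, Tmem176a and Tra2a among the lower. The other 4 were Rab19, Dennd2a and Tax1bp1, which rose, and Aqp1, which fell. Whether untreated and treated cells of a genotype came from the same mice was not given, so the comparisons may share their source.

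Among secreted signals, Rarres2 and Npy were the members that rose most in R150X cells. Rarres2 (ENSMUSG00000009281, 48569696 to 48572789, minus strand, 0.464 Mb from Gpnmb) encodes chemerin, a chemoattractant for macrophages and dendritic cells. It stood at 12, 12.6 and 12.1 CPM in R150X cells with OxLDL, against 3.01, 2.99 and 3.68 CPM in WT cells with OxLDL, with 1.93 as the log2 fold change (SE 0.158, adjusted p = 1.66e-08). Untreated R150X cells held 9.13, 7.55 and 8.19 CPM, against 3.29, 2.53 and 4.35 CPM in untreated WT cells, with 1.29 as the log2 fold change (SE 0.157, adjusted p = 2.41e-06). Every R150X library was above every WT library in both conditions. Exons of Rarres2 and of its neighbour Lrrc61 overlap over 33.6% of Rarres2, and without a stated strand setting reads there cannot be assigned to either gene. Chemerin is also known as a product of adipocytes. The 4 adipocyte markers summed to 38.3 to 43.9 CPM in R150X and 2.32 to 4.15 CPM in WT with OxLDL, and to 3.07 to 4.12 CPM in untreated R150X and 0.633 to 0.808 CPM in untreated WT. The 3 that were tested rose in both genotype comparisons and with OxLDL in R150X. With OxLDL in WT 2 of the 3 rose, where Rarres2 did not pass (log2 fold change -0.07, adjusted p = 0.783). Cfd was at or under 0.314 CPM in every library, and the part of these markers in the Rarres2 result was not tested. Lrrc61 itself had log2 fold changes of 0.30 with OxLDL (adjusted p = 0.0788) and 0.16 untreated (adjusted p = 0.305).

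Npy (ENSMUSG00000029819, 49822710 to 49829507, plus strand, 0.752 Mb from Gpnmb) encodes neuropeptide Y, a transmitter best known from neurons. Untreated R150X cells held 19.1, 15.4 and 16 CPM of Npy, against 7.06, 6.8 and 7.84 CPM in untreated WT cells (log2 fold change 1.21, SE 0.126, adjusted p = 2.94e-07). With OxLDL the values were 14.1, 14.4 and 17.5 CPM in R150X cells, against 11.1, 10.5 and 8.2 CPM in WT (log2 fold change 0.62, SE 0.126, adjusted p = 0.0016). The genotypes did not overlap in either condition, and the gap was narrower with OxLDL.

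Malsu1, the member nearest to Gpnmb, starts 2.87 kb from its end and encodes an assembly factor of the mitochondrial ribosome (ENSMUSG00000029815, 49073795 to 49086751, plus strand). It stood at 17.3, 16.5 and 17.5 CPM in untreated R150X cells, against 11.7, 12.1 and 12.5 CPM in untreated WT cells (log2 fold change 0.50, SE 0.101, adjusted p = 0.000728). With OxLDL the values were 15.7, 17.6 and 17.3 CPM in R150X cells, against 12.5, 11.3 and 15.2 CPM in WT (log2 fold change 0.38, SE 0.103, adjusted p = 0.0166). The lowest R150X library lay above the highest WT library in both conditions, with OxLDL by a small margin. The OxLDL call was lost without replicate 2 or 3 of R150X or replicate 1 or 2 of WT, at adjusted p from 0.057 to 0.114. Of the exonic bases of Malsu1, 40.5% overlap Igf2bp3, an RNA-binding protein gene that did not pass (log2 fold change 0.22 untreated and 0.20 with OxLDL), so its count is uncertain. Ccdc126, 0.248 Mb from Gpnmb on the same side, had log2 fold changes of -0.09 untreated and 0.09 with OxLDL that did not pass.

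Mpp6, which encodes a scaffold protein of the membrane-associated guanylate kinase family, rose by similar amounts in both conditions. It lies 1.04 Mb from Gpnmb (50110241 to 50198939, plus strand). With OxLDL it stood at 45.4, 50.4 and 48.6 CPM in R150X cells, against 34.4, 35.6 and 32.9 CPM in WT (log2 fold change 0.49, SE 0.0695, adjusted p = 3.39e-05). Untreated cells held 45.3, 43.7 and 40.2 CPM in R150X cells, against 29.1, 30.1 and 33.1 CPM in WT (log2 fold change 0.48, SE 0.0692, adjusted p = 1.81e-05). The groups were well apart in both conditions.

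Of the rising genes farther away, Rab19, a small GTPase of vesicle traffic 9.65 Mb from Gpnmb, had log2 fold changes of 0.75 untreated (adjusted p = 0.000419) and 0.42 with OxLDL (adjusted p = 0.0442). Its OxLDL call was lost with DESeq2, with the replicate block and in 5 of 6 leave-outs, all except that of replicate 1 of R150X, at adjusted p from 0.0555 to 0.166. Dennd2a, an activator of Rab GTPases, rose by 0.48 untreated and by 0.27 with OxLDL (adjusted p = 2.55e-06 and 0.00248). Tax1bp1, a receptor for selective autophagy, stood at 271, 266 and 248 CPM in R150X with OxLDL, against 237, 227 and 214 CPM in WT with OxLDL (log2 fold change 0.21, adjusted p = 0.0077), and rose by 0.22 in untreated cells. All libraries of these 3 genes were higher in R150X than in WT within each condition.

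**Figure D3:**
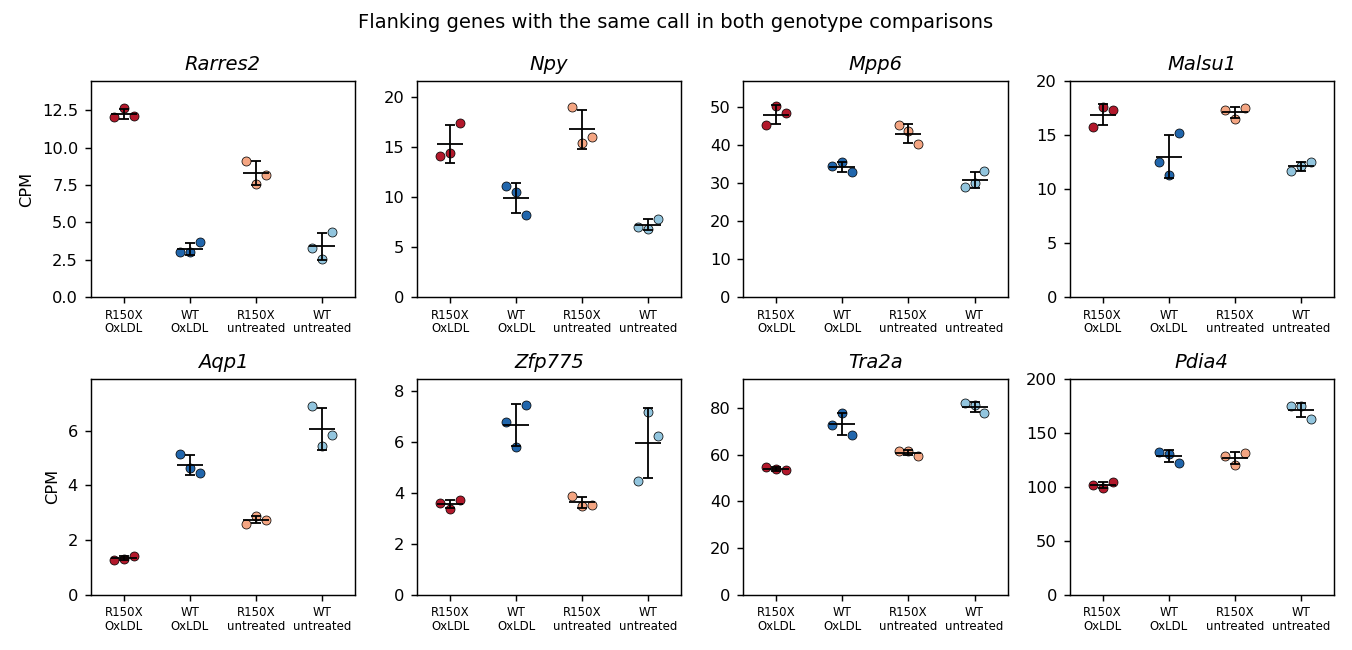
CPM of 8 flanking genes called in the same direction in both genotype comparisons, with 1 point per library and bars for the mean ± SD (n = 3), in R150X and WT cells with OxLDL and untreated. In each gene the R150X points lie on one side of the WT points of the same treatment.

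The gene that fell most in R150X was Aqp1, which encodes the water channel aquaporin 1 (ENSMUSG00000004655, 55336432 to 55348555, plus strand, 6.27 Mb from Gpnmb). It stood at 1.25, 1.32 and 1.4 CPM in R150X cells with OxLDL, against 5.14, 4.63 and 4.45 CPM in WT cells with OxLDL, with -1.84 as the log2 fold change (SE 0.186, adjusted p = 3.87e-07). Untreated R150X cells held 2.6, 2.87 and 2.75 CPM, against 6.9, 5.43 and 5.85 CPM in untreated WT cells, with -1.14 as the log2 fold change (SE 0.156, adjusted p = 9.88e-06). The groups were far apart in both conditions, and Aqp1 is also known from endothelial cells and red cell precursors. The summed level of 5 endothelial markers was 126 to 131 CPM in R150X with OxLDL and 137 to 143 CPM in WT with OxLDL, and 215 to 229 CPM in untreated R150X and 281 to 289 CPM in untreated WT. Of the 5, 1 fell with OxLDL and 3 fell untreated, none was at 0, and their part in the Aqp1 result was not tested. In such bulk samples fewer cells of a type and less RNA per cell cannot be told apart.

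A cluster of 9 zinc finger genes and Krba1, a gene with a KRAB domain, lies from 0.413 to 1.16 Mb on the low side of Gpnmb. Zinc finger proteins of this kind bind DNA, and many repress transcription. Of its 10 members, 1 rose and 6 fell in untreated R150X cells, and 0 rose and 4 fell with OxLDL, with median log2 fold changes of -0.32 and -0.25. Over all genes the medians were 0.01 and 0.00198, and 18.1% rose and 14.8% fell untreated and 6.10% and 6.92% with OxLDL. Zfp775 stood at 3.58, 3.38 and 3.71 CPM in R150X with OxLDL, against 6.77, 5.79 and 7.44 CPM in WT with OxLDL (log2 fold change -0.91, SE 0.172, adjusted p = 0.000895). In untreated cells it held 3.87, 3.49 and 3.52 CPM in R150X cells, against 4.47, 7.17 and 6.23 CPM in WT (log2 fold change -0.72, SE 0.169, adjusted p = 0.0026). The R150X libraries lay close together and below every WT library.

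Repin1, a zinc finger protein described as a replication initiation factor, fell by 0.41 on the log2 scale with OxLDL (adjusted p = 0.01) and by 0.37 untreated (adjusted p = 0.00846). Those calls were lost without replicate 2 of R150X or replicate 1 of WT with OxLDL (adjusted p = 0.0611 at most) and without replicate 2 of untreated R150X (adjusted p = 0.0603). Zfp398 fell by 0.42 with OxLDL and by 0.41 untreated (adjusted p = 0.0177 and 0.0104), and lost its OxLDL call without replicate 2 of R150X or replicate 1 or 2 of WT (adjusted p from 0.0572 to 0.0957) and its untreated call without replicate 1 of R150X (adjusted p = 0.0534). Zfp467 fell by 0.35 with OxLDL (adjusted p = 0.000532) and by 0.17 untreated (adjusted p = 0.0455), a call lost with DESeq2, with no filter and in 5 of 6 leave-outs, all except that of replicate 2 of R150X, at adjusted p from 0.0547 to 0.138. Krba1, given with the interaction results, fell by 0.78 in untreated cells (adjusted p = 6.21e-05). Zfp282 passed in untreated cells (log2 fold change -0.34, adjusted p = 0.00582) and not with OxLDL (-0.20, adjusted p = 0.173), and the difference between these values did not pass (adjusted p = 0.56). Zfp777 was the riser, by 0.21 untreated (adjusted p = 0.0415), a call lost with DESeq2, with library size alone, with no filter, in a fit of the 2 groups only and in 5 of 6 leave-outs, all except that of replicate 1 of WT, at adjusted p from 0.0529 to 0.186. Zfp212, Zfp956 and Zfp746 did not pass in either condition.

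The Hoxa cluster, homeobox transcription factors that pattern the embryo and are active in blood progenitors, lies on the high side, with Hoxa3 at 3.10 Mb and Hoxa11 at 3.17 Mb. Of its 8 members, 0 rose and 3 fell in untreated R150X cells, and none passed with OxLDL, beside 14.8% of all genes down untreated and 13.0% called with OxLDL. Hoxa9 stood at 7.87, 6.6 and 6.76 CPM in untreated R150X, against 10.3, 10.2 and 12.2 CPM in untreated WT (log2 fold change -0.63, SE 0.123, adjusted p = 0.000499). Hoxa10 fell by 0.50 on the log2 scale (adjusted p = 0.00149). Both were below WT in every untreated R150X library. The summed fibroblast and stroma markers, given further on, were also lower in untreated R150X, and their part in the Hoxa falls was not tested. Hoxa3, at 2.27, 2.87 and 2.09 CPM in untreated R150X and 3.77, 3.01 and 4.24 CPM in untreated WT, fell by 0.60 (adjusted p = 0.0231), which was lost with DESeq2 and without replicate 1 or 3 of either genotype, at adjusted p from 0.057 to 0.109. Other annotated transcripts, Hoxaas2 and Hoxaas3 among them, overlap 27.1% of the exonic bases of Hoxa3, so its count is uncertain. Hoxa5, Hoxa6, Hoxa7 and Hoxa11 did not pass, with log2 fold changes from -0.33 to 0.21.

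Of 8 members in RNA processing and translation, 3 rose and 2 fell in untreated R150X cells, and 1 rose and 1 fell with OxLDL, where 33.0% and 13.0% of all genes were called. Tra2a, a splicing regulator 0.173 Mb from Gpnmb (49243924 to 49264033, minus strand), stood at 54.9, 54 and 53.3 CPM in R150X with OxLDL, against 72.7, 78.1 and 68.6 CPM in WT with OxLDL (log2 fold change -0.44, SE 0.0562, adjusted p = 9.65e-06). Untreated cells held 61.5, 61.6 and 59.7 CPM in R150X cells, against 82.2, 81.4 and 78.2 CPM in WT (log2 fold change -0.40, SE 0.0547, adjusted p = 8.86e-06). The R150X libraries lay within a narrow range below all WT libraries. Mkrn1, a ubiquitin ligase that binds RNA, rose by 0.46 in untreated cells (adjusted p = 1.95e-06), and Mrps33, a mitochondrial ribosomal protein, rose by 0.46 (adjusted p = 0.0203), a call lost without replicate 1 of R150X or replicate 3 of WT (adjusted p = 0.104 and 0.105). Gars, the glycyl-tRNA synthetase, fell by 0.23 in untreated cells (adjusted p = 0.00114).

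Of 5 members listed under protein folding in the endoplasmic reticulum and secretion, 0 rose and 3 fell in untreated R150X cells. With OxLDL 1 fell, where 14.8% of all genes fell untreated and 6.92% with OxLDL. Pdia4, a disulfide isomerase, stood at 128, 120 and 131 CPM in untreated R150X, against 175, 175 and 163 CPM in untreated WT (log2 fold change -0.44, adjusted p = 1.69e-06). With OxLDL it held 101, 98.9 and 105 CPM in R150X cells, against 132, 130 and 122 CPM in WT (log2 fold change -0.34, adjusted p = 0.000121). Fkbp9 and Fkbp14, prolyl isomerases that act on collagens and other secreted proteins, fell by 0.39 and 0.41 in untreated cells (adjusted p = 9.84e-07 and 0.00137), and with OxLDL had log2 fold changes of -0.08 and -0.07 that did not pass. The difference between the conditions passed for Fkbp9, given with the interaction results, and not for Fkbp14 (0.34, adjusted p = 0.132). The 6 fibroblast and stroma markers summed to 7605 to 7646 CPM in untreated R150X and 12048 to 12144 CPM in untreated WT, and to 4547 to 4804 CPM in R150X and 5322 to 5962 CPM in WT with OxLDL. Of them 5 fell and 1 rose untreated, 3 fell with OxLDL, and none was at 0. Their part in the falls of Pdia4, Fkbp9 and Fkbp14 was not tested.

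Among innate immune and phagocyte genes, 5 of 12 members rose and 0 fell in untreated R150X cells, and 2 rose and 2 fell with OxLDL, beside 18.1% up and 14.8% down of all genes untreated and 6.10% and 6.92% with OxLDL. Rarres2 and Tax1bp1 rose in both conditions, and Nt5c3, Skap2 and Clec5a passed in untreated cells. Skap2, an adaptor in integrin signalling of myeloid cells, stood at 196, 192 and 186 CPM in untreated R150X, against 169, 172 and 167 CPM in untreated WT (log2 fold change 0.18, adjusted p = 0.00914), a call lost with library size alone (adjusted p = 0.119). Clec5a, a lectin receptor of myeloid cells, rose by 0.24 (adjusted p = 0.031), a call lost with library size alone and in 5 of 6 leave-outs, all except that of replicate 3 of R150X, at adjusted p from 0.0646 to 0.139. With OxLDL the fallers were Nod1, a sensor of bacterial peptidoglycan, at -0.23 (adjusted p = 0.0187), and Snx10, a sorting nexin of endosomes, at -0.21 (adjusted p = 0.0355). Nod1 lost its call without replicate 1 or 2 of R150X or replicate 3 of WT (adjusted p from 0.064 to 0.0941). Snx10 lost its call with library size alone and without replicate 3 of R150X or replicate 1 or 2 of WT (adjusted p from 0.0548 to 0.223). Neutrophil markers were lower in R150X in the same comparisons, with sums of 37.6 to 39.6 CPM in R150X and 114 to 134 CPM in WT with OxLDL, and 189 to 205 CPM in untreated R150X and 413 to 438 CPM in untreated WT. Of the 7, 6 were tested and 6 fell in each condition, Retnlg was at or under 0.226 CPM in every library, and their part in these results was not tested.

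The Tmem176 pair, membrane proteins related to the MS4A family and abundant in myeloid cells, was lower in R150X in both conditions. Tmem176b (48833818 to 48841496, minus strand, 0.195 Mb from Gpnmb) stood at 61.6, 64.5 and 60.8 CPM in R150X with OxLDL, against 87.3, 81.6 and 73.7 CPM in WT with OxLDL (log2 fold change -0.38, SE 0.0657, adjusted p = 0.000363). Tmem176a (48840919 to 48847071, plus strand) stood at 41, 41.7 and 39.2 CPM in R150X with OxLDL, against 51.1, 46.6 and 46.4 CPM in WT with OxLDL (log2 fold change -0.24, SE 0.0627, adjusted p = 0.0118). Neither gene's R150X libraries overlapped those of WT. The summed macrophage markers given above were also lower in R150X with OxLDL, and higher in R150X untreated, and their part was not tested. In untreated cells the log2 fold changes were -0.19 and -0.16 (adjusted p = 0.021 and 0.0313). Those calls were lost, for Tmem176b without replicate 2 or 3 of R150X or replicate 1 or 2 of WT (adjusted p from 0.0687 to 0.0945), and for Tmem176a without replicate 2 or 3 of R150X or replicate 1 or 3 of WT (adjusted p from 0.0701 to 0.133). The OxLDL call of Tmem176a was lost without replicate 3 of R150X or replicate 1 of WT (adjusted p = 0.0588 and 0.084). Exons of the pair share 3.42% of the bases of Tmem176b, around the stretch printed in capitals above.

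Of 11 kinases, receptors and other signalling members, 2 rose and 2 fell in untreated R150X cells, and 0 passed with OxLDL, where 33.0% and 13.0% of all genes were called, so the untreated share is near that of all genes. Braf, the kinase upstream of MEK, fell by 0.31 on the log2 scale (adjusted p = 0.00235), and Arhgef5, a guanine nucleotide exchange factor, fell by 0.43 (adjusted p = 0.00339). Pde1c rose by 1.05 (SE 0.325, adjusted p = 0.0174) at 1.93, 1.97 and 1.43 CPM in R150X cells, against 1.08, 0.897 and 0.59 CPM in WT. It is the member nearest to the CPM minimum, and its call was lost without replicate 1 or 2 of R150X or replicate 3 of WT (adjusted p from 0.0595 to 0.0872). Of 14 members listed under mitochondria and metabolism, 5 rose and 1 fell in untreated R150X cells and 2 rose with OxLDL, Dennd2a counted among them though it is a Rab activator. All genes gave 18.1% up and 14.8% down untreated and 6.10% and 6.92% with OxLDL. The mitochondrial enzyme gene Hibadh rose by 0.25 (adjusted p = 0.00196), while Vopp1 rose by 0.27 (adjusted p = 0.00188) and Mturn rose by 0.48 (adjusted p = 0.00746). Cycs, the electron carrier cytochrome c, rose by 0.22 (adjusted p = 0.0266), lost with library size alone and without replicate 1 of R150X or replicate 2 or 3 of WT (adjusted p from 0.0854 to 0.133). Of 8 members in lipid, membrane and ion transport, 2 rose and 1 fell in untreated cells and 2 fell with OxLDL. Of 7 members of the ubiquitin pathway, 2 rose and 0 fell in untreated cells and 1 rose with OxLDL. Both lists are near the 33.0% of all genes called untreated, and 13.0% were called with OxLDL. Tcaf1 and Tcaf2, regulators of an ion channel, fell by 0.36 and 0.47 (adjusted p = 0.00133 and 0.0142), the second call being lost without replicate 2 of R150X or replicate 3 of WT (adjusted p = 0.0617 at most). Ggct, of glutathione breakdown, fell by 0.48 (adjusted p = 0.0301), lost with DESeq2 and without replicate 1 or 3 of R150X or 2 or 3 of WT (adjusted p from 0.0606 to 0.146). In OxLDL-treated cells the histone demethylase Kdm7a fell by 0.24 (adjusted p = 0.018), lost without replicate 3 of R150X or replicate 1 or 2 of WT (adjusted p from 0.0709 to 0.111).

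OxLDL changed 54 of the 95 flanking genes in WT cells, 22 up and 32 down, and 44 in R150X cells, 16 up and 28 down. These are 56.8% of members in WT, beside 45.8% of all genes tested and 51.7% of protein-coding genes at the CPM minimum, and 46.3% in R150X, beside 39.0% and 44.4%. By direction they are 23.2% up and 33.7% down in WT, where all genes gave 22.7% and 23.1%, and 16.8% up and 29.5% down in R150X, where all genes gave 18.4% and 20.6%. Without replicate 1 of untreated R150X, 41 members passed in R150X. Scaled by library size alone, the WT split became 13 up and 37 down, a setting that moved the median of all genes by -0.11 on the log2 scale. The 2 responses share no library, and 35 members were called in both, all in the same direction, 13 up and 22 down. That is 64.8% of the WT calls and 79.5% of the R150X calls, beside 64.1% and 75.2% over all genes.

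The interferon-induced genes Herc6, an ISG15 ligase in mice, and Parp12, an ADP-ribosyltransferase, fell steeply in both genotypes. Herc6 (8.51 Mb from Gpnmb) stood at 10.2, 9.55 and 9.25 CPM in R150X with OxLDL, against 32.9, 40.1 and 36.6 CPM in untreated R150X (log2 fold change -1.92, SE 0.0924, adjusted p = 2.2e-13). The WT values were 9.9, 8.1 and 8.34 CPM with OxLDL, against 37.8, 37.5 and 37.2 CPM untreated (log2 fold change -2.09, SE 0.0946, adjusted p = 7.87e-14). Treated and untreated libraries were far apart. Parp12 (9.92 Mb) stood at 44.4, 41.7 and 40.7 CPM in R150X with OxLDL, against 104, 113 and 113 CPM in untreated R150X (log2 fold change -1.38, adjusted p = 2.3e-14), and the WT value was -1.37. Neither gene passed between the genotypes, with log2 fold changes from -0.03 to 0.13.

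The Tmem176 pair also fell with OxLDL in both genotypes. Tmem176b stood at 61.6, 64.5 and 60.8 CPM in R150X with OxLDL, against 215, 187 and 189 CPM in untreated R150X (log2 fold change -1.66, SE 0.0641, adjusted p = 5.57e-15). Levels in WT were 87.3, 81.6 and 73.7 CPM with OxLDL, against 227, 226 and 220 CPM untreated (log2 fold change -1.47, SE 0.0631, adjusted p = 3.17e-14). Tmem176a fell by 1.65 in R150X and by 1.56 in WT on the log2 scale. Both genes of the pair were called downward in all 4 comparisons.

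All 5 members of the Gimap family, GTPases best known for the survival of lymphocytes, fell with OxLDL in WT, and 4 of 5 fell in R150X. Of all genes tested, 23.1% fell in WT and 20.6% in R150X. Gimap4 stood at 5.33, 4.98 and 5.36 CPM in R150X with OxLDL, against 9.86, 11.5 and 11.3 CPM in untreated R150X (log2 fold change -1.06, SE 0.115, adjusted p = 1.51e-07). WT libraries stood at 3.82, 4.02 and 3.75 CPM with OxLDL, against 12.3, 13 and 11.5 CPM untreated (log2 fold change -1.67, SE 0.12, adjusted p = 2.05e-10). Gimap6 fell by 1.19 in R150X and by 1.36 in WT, and Gimap8 by 1.19 and 1.27. Gimap5, at 0.251 to 2 CPM over all libraries, fell by 1.30 and 1.80, its R150X call being lost without replicate 2 of R150X with OxLDL (adjusted p = 0.0503). Gimap1 passed in WT (log2 fold change -1.02, adjusted p = 0.0199, lost without replicate 3 of untreated WT or replicate 1 of WT with OxLDL, adjusted p = 0.119 and 0.122) and not in R150X, and the difference between the responses did not pass (0.59, adjusted p = 0.527). Other annotated genes overlap 36.0% of the exonic bases of Gimap1, so its count is uncertain. Of the T and NK cell markers above, Il7r was higher with OxLDL in both genotypes and the others were at or under 1.34 CPM. Of those low ones, the means of Ncr1, Nkg7, Trac, Trbc2 and Cd3d were lower with OxLDL in both genotypes. That of Cd3e was higher in both, and that of Cd3g higher only in R150X. All 5 endothelial markers fell with OxLDL in both genotypes. Of 2 B cell markers tested, 1 fell in WT and 0 in R150X. The part of such cells in the Gimap falls was not tested. Between the genotypes, Gimap6 fell by 0.55 in untreated R150X (adjusted p = 0.00633), at 7.67, 7.1 and 7.58 CPM against 10.7, 11.8 and 10.1 CPM in untreated WT.

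Of 22 chromatin and transcription members, 1 rose and 3 fell with OxLDL in R150X and 4 rose and 9 fell in WT. That list leaves out the histone demethylase Kdm7a. Of the 14 under mitochondria and metabolism, 4 rose and 2 fell in R150X and 5 rose and 1 fell in WT. The difference between the responses passed for 1 of the 22, Krba1, and 0 of the 14, beside 8.32% of all genes. All genes gave 18.4% up and 20.6% down in R150X and 22.7% and 23.1% in WT. Cycs fell by 0.67 in R150X and by 0.60 in WT, and Ezh2, the histone methyltransferase of the Polycomb complex, fell by 0.38 and 0.61 (adjusted p = 0.00128 and 7.07e-06). In the Hoxa cluster 0 of 8 passed in R150X and 4 of 8 fell in WT, and the test of the difference between the responses passed for none of the 8 (log2 differences from -0.05 to 0.77, adjusted p from 0.168 upward). Of those falls in WT, that of Hoxa6 was lost with DESeq2 and without replicate 1 or 2 of untreated WT or replicate 1 or 3 of WT with OxLDL (adjusted p from 0.067 to 0.23), and that of Hoxa3 with DESeq2 and without replicate 1 or 3 of either WT group (adjusted p from 0.0584 to 0.111). Kbtbd2, an adaptor of a ubiquitin ligase, fell by 0.24 in R150X (adjusted p = 0.00687), lost without replicate 3 of R150X with OxLDL (adjusted p = 0.0552). Its WT value was 0.06, and the difference between the responses did not pass (-0.30, adjusted p = 0.0578).

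Among members that rose with OxLDL, Mkrn1 stood at 170, 168 and 164 CPM in R150X with OxLDL, against 142, 121 and 130 CPM in untreated R150X (log2 fold change 0.36, adjusted p = 1.91e-05). In WT cells there were 156, 147 and 157 CPM with OxLDL, against 97.2, 93.3 and 94 CPM untreated (log2 fold change 0.70, adjusted p = 1.07e-09). Untreated WT cells were the lowest of the 4 groups. Gstk1, a glutathione transferase, rose by 0.74 in R150X and by 0.63 in WT (adjusted p = 0.00429 and 0.0113), the WT call being lost without replicate 3 of untreated WT or replicate 2 of WT with OxLDL (adjusted p = 0.0789 at most). Fam13a, at the high-coordinate end of the window, rose by 0.83 and 0.71 (adjusted p = 0.00691 and 0.0221), the WT call being lost with DESeq2, library size alone and 3 leave-outs (adjusted p from 0.051 to 0.0924). Pyurf rose by 0.61 in WT (adjusted p = 0.003), its R150X value of -0.05 did not pass, and the difference between them did not pass (-0.66, adjusted p = 0.0683). Other annotated genes overlap 34.2% of the exonic bases of Pyurf, so its count is uncertain. Lrrc61 rose by 0.59 and 0.45 (adjusted p = 0.000206 and 0.00297), and Vopp1 by 0.34 and 0.46 (adjusted p = 9.25e-05 and 1.93e-06). Rarres2 rose by 0.57 in R150X (adjusted p = 0.00198), and its WT value of -0.07 did not pass (adjusted p = 0.783), but the test of the difference between the responses did not pass either (adjusted p = 0.0945). For Aqp1 the values were -1.05 in R150X (adjusted p = 0.000231), -0.35 in WT (adjusted p = 0.0555) and an adjusted p of 0.0942 for the difference.

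**Figure D4:**
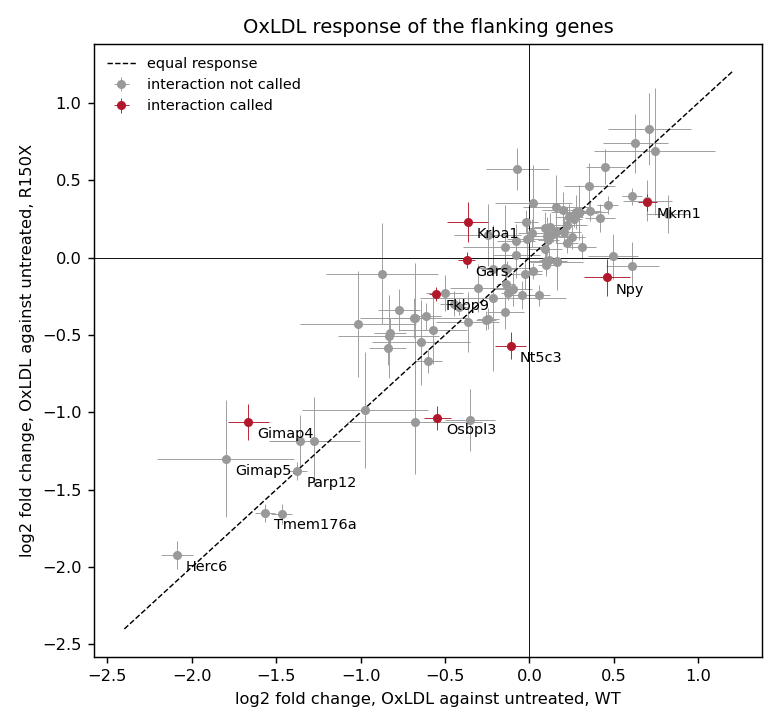
Log2 fold change with OxLDL of each flanking gene in WT cells (horizontal axis) and in R150X cells (vertical axis), with bars of 1 SE, the line of equal response dashed, and genes whose responses differed at an adjusted p under 0.05 in red. Herc6, Parp12 and Tmem176a lie near the dashed line at the lower left, and Osbpl3 lies below it.

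The OxLDL response differed between R150X and WT in 8 of the 95 members (8.42%), beside 8.32% of all genes tested and 10% of protein-coding genes at the CPM minimum. Of these 4 had a higher and 4 a lower response in R150X, where all genes gave 3.13% and 5.19%. Without replicate 1 of untreated R150X 4 members passed, and with library size alone 9 passed, 7 higher and 2 lower. Gars, Fkbp9, Osbpl3 and Mkrn1 passed under every alternative fit and leave-out run.

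Osbpl3, a lipid transfer protein of the oxysterol-binding family, fell further in R150X. It stood at 21.2, 23 and 20.3 CPM in R150X with OxLDL, against 40.7, 45.3 and 46.4 CPM in untreated R150X (log2 fold change -1.04). WT cells held 26.7, 25.5 and 22.3 CPM with OxLDL, against 36.7, 37 and 35.2 CPM untreated (log2 fold change -0.55), and the difference between these was -0.49 (SE 0.111, adjusted p = 0.00703). Untreated R150X was the highest of the 4 groups in every library. For Mkrn1 the difference between the responses was -0.34 (SE 0.078, adjusted p = 0.00805).

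Gars stood at 117, 114 and 112 CPM in R150X with OxLDL, against 120, 116 and 112 CPM in untreated R150X, a log2 fold change of -0.02 that did not pass. The WT values were 110, 103 and 103 CPM with OxLDL, against 140, 136 and 132 CPM untreated (log2 fold change -0.37, adjusted p = 2.92e-06). In R150X, unlike WT, treated and untreated libraries overlapped, and the difference was 0.36 (SE 0.0711, adjusted p = 0.00268). Fkbp9 stood at 114, 111 and 110 CPM in R150X with OxLDL, against 131, 131 and 133 CPM in untreated R150X (log2 fold change -0.24). Levels in WT were 116, 121 and 117 CPM with OxLDL, against 171, 178 and 171 CPM untreated (log2 fold change -0.55), and the difference was 0.32 (SE 0.0646, adjusted p = 0.00315). For both genes the genotypes were furthest apart in untreated cells. The stroma markers given above were also highest in untreated WT, and their part in this result was not tested.

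**Figure D5:**
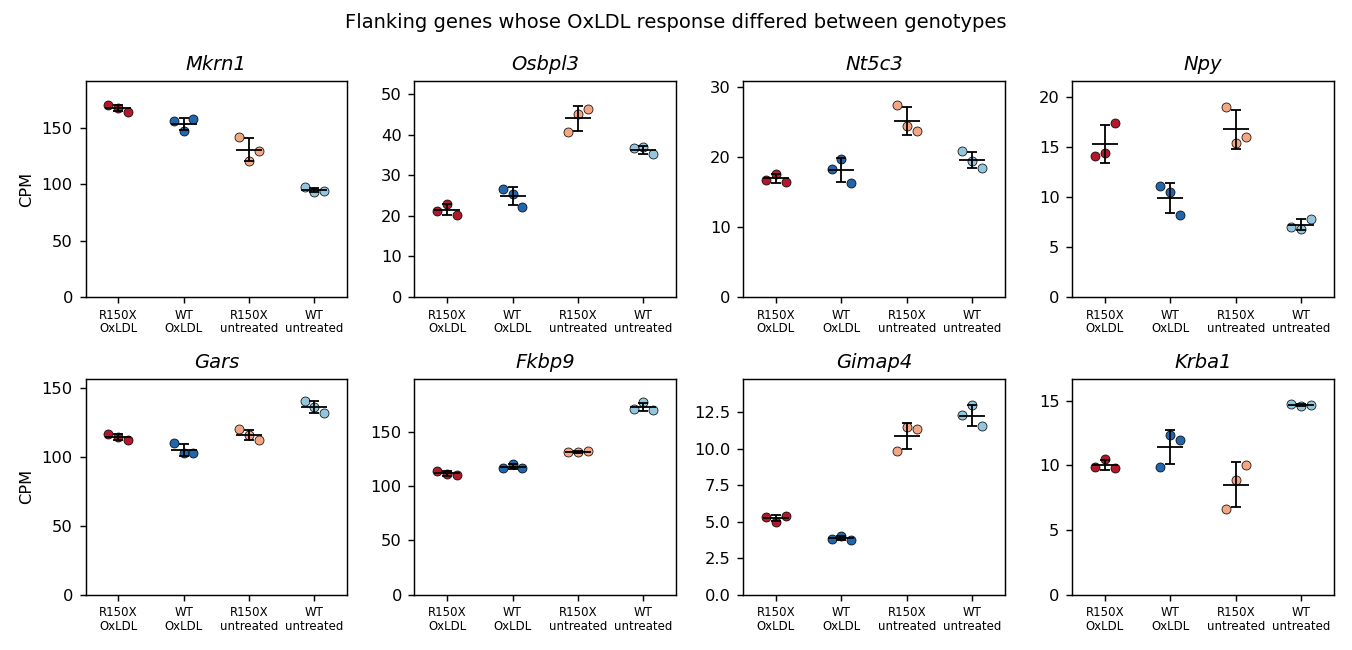
CPM of the 8 flanking genes whose OxLDL response differed between the genotypes, with 1 point per library and bars for the mean ± SD (n = 3), in R150X and WT cells with OxLDL and untreated. In Gars and Fkbp9 the 3 untreated WT libraries lie above the other groups, and in Mkrn1 below them.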

How the data were processed

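Gene expression was deposited as whole-number counts per Ensembl gene, which the authors had not normalized. The submitters' processing notes name FastQC, HISAT2, featureCounts and DESeq2 and the builds mm10 and GRCm38, with no versions. No source used here gives the annotation release or the strand setting. Gene symbols, types and coordinates came from GENCODE on GRCm38, where 54495 of 54532 identifiers matched.

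Genes with low counts were removed by edgeR's filterByExpr, leaving 15338. After TMM scaling, 1 model of the 4 groups was fitted over the 12 libraries (edgeR 4.0.16, limma 3.58.1, R 4.3.3), with a common biological coefficient of variation of 0.0608, and its quasi-likelihood test gave 5 comparisons. CPM refer to the scaled library sizes. "Rose", "fell" and "called" mean an adjusted p (Benjamini-Hochberg, across those 15338 genes) under 0.05. The fit was also run on simulated counts, and the outcome of that run is not reported here. DESeq2 1.42.0, other scalings, filters and windows, and leaving out each library were alternatives.

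The genes named were, by comparison, the 12 highest and 12 lowest called members (8 and 8 for OxLDL responses, up to 10 for the interaction), the 5 nearest to Gpnmb on each side, the 5 with the highest CPM and up to 3 per role list. Any other gene named was chosen after its values were seen. The members and lists were chosen with earlier results of these data known. Same-numbered libraries did not deviate together throughout (correlations from -0.122 to 0.22), so the numbers were not taken as pairs. Between R150X and WT with OxLDL, same-numbered libraries gave 0.0817 to 0.22 and the others -0.151 to 0.0497. A shared batch there was not tested, and a fit with the replicate number as a block gave 19 called members. Exons of 41 members overlap other genes, over at most 40.5% of a member's exonic bases. Values of some members are not reported here.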

Additional observations from a re-analysis of the deposited data

Results flagged for a closer look

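For 8 flanking genes the OxLDL response in R150X cells differed from that in WT cells by the interaction test, which is what marks them for a second look. Osbpl3 (log2 difference -0.49), Mkrn1 (-0.34), Gars (0.36) and Fkbp9 (0.32) kept this call in every alternative fit and leave-out run.

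The other 4 were less firm. Nt5c3, a pyrimidine nucleotidase, had a log2 difference of -0.46 (SE 0.128, adjusted p = 0.03), with 16.7, 17.6 and 16.5 CPM in R150X with OxLDL, against 27.5, 24.4 and 23.7 CPM in untreated R150X. In WT it held 18.3, 19.7 and 16.3 CPM with OxLDL, against 20.9, 19.4 and 18.5 CPM untreated, so that only in WT did treated and untreated libraries overlap. Its call was lost with library size alone and in 7 of 12 leave-outs, at adjusted p from 0.0617 to 0.0912. Gimap4 had a log2 difference of 0.60 (adjusted p = 0.031), lost with DESeq2, with no filter and in 8 of 12 leave-outs, at adjusted p from 0.0528 to 0.0817. Its genotype call with OxLDL (log2 fold change 0.43, adjusted p = 0.0378) was lost with DESeq2, with no filter, in a fit of the 2 groups only and in all 6 leave-outs, at adjusted p from 0.0598 to 0.112.

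Krba1 had a log2 difference of 0.60 (adjusted p = 0.0418), with 9.85, 10.5 and 9.8 CPM in R150X with OxLDL, against 6.6, 8.85 and 10.1 CPM in untreated R150X. In WT it held 9.9, 12.3 and 12 CPM with OxLDL, against 14.8, 14.6 and 14.7 CPM untreated. The untreated genotypes did not overlap (log2 fold change -0.78, adjusted p = 6.21e-05), and the interaction call was lost in 10 of 12 leave-outs, at adjusted p from 0.0503 to 0.122. Npy had a log2 difference of -0.59 (adjusted p = 0.0462), lost with DESeq2, library size alone and the replicate block and in 8 of 12 leave-outs, at adjusted p from 0.0525 to 0.148.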

How the results depend on the processing

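Over 169 pairs of a member and a comparison in which it was called, no direction was reversed under any alternative. DESeq2 kept 146 of them, library size alone 152, no filter on low counts 156 and a fit of only the groups compared 157 of 161, which could not be run for the interaction. With the replicate number as a block the counts of called members were 44 for R150X against WT untreated, 19 with OxLDL, 54 and 44 for OxLDL in WT and in R150X, and 8 for the interaction, and 165 of the 169 calls were kept. In that order, leaving out 1 library gave 32 to 38, 12 to 18, 41 to 48, 35 to 41 and 4 to 9 called members. As shares of members these were 33.7% to 40%, 12.6% to 18.9%, 43.2% to 50.5%, 36.8% to 43.2% and 4.21% to 9.47%. All genes gave 24.8% to 30.9%, 9.06% to 11.7%, 38.9% to 40.2%, 32.1% to 37.3% and 5.72% to 8.89% in the same runs. A window of 5 Mb (47 members) gave 25 genotype calls untreated and 15 with OxLDL, 30 and 19 OxLDL calls in WT and R150X and 4 interactions. In the same order, a window of 20 Mb (157 members) gave 71, 29, 91, 71 and 22. At an adjusted p under 0.01, 11 genotype calls with OxLDL and 4 interactions were left. Calls kept under every alternative fit and leave-out numbered 28 of 43, 11 of 20, 32 of 54, 29 of 44 and 4 of 8. Low counts limit what can be seen: Gimap5, near 1 CPM, had an SE of up to 0.57 on the log2 scale.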
